A study of Homo sapiens with 68 samples.

Results

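Neuronal genes were followed in A673, a Ewing sarcoma cell line with an EWS/FLI translocation, after treatment with ARA-C, doxorubicin or puromycin. The 34 genes encode proteins of the neuronal cytoskeleton, of axon growth and adhesion, of secretory granules and synaptic vesicles, and RNA-binding proteins and enzymes that mark neurons. They form a list of symbols with no threshold on signal or change, chosen with earlier results of these data known. All 34 had a probe set on the array, out of 11882 genes with a symbol. For 14 of them more than 1 probe set was present, and the brightest was used.

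Cells received ARA-C (cytosine arabinoside, a nucleoside analog that blocks DNA synthesis) at 0.17 or 0.34 µM, doxorubicin (an anthracycline that poisons topoisomerase II) at 59.88 or 119.76 nM, or puromycin (an aminonucleoside that ends translation early) at 0.09 or 0.18 µM, the EC50 and 2xEC50 of each, for 24 h, 3 d or 5 d. DMSO vehicle was the control at each time. The arrays numbered 18 for ARA-C, 17 for doxorubicin, 16 for puromycin and 17 for vehicle, with 3 per treated group except doxorubicin 2xEC50 on day 5 (n = 2) and puromycin 2xEC50 on day 5 (n = 1). Every group is the same translocated tumor line in culture, so that the measurements are of a tumor line and not of neurons, and RNA came from whole wells: fewer cells that express a gene and less RNA per cell cannot be told apart. The labels call the replicates biological and do not say whether they were separate cultures. If they were not, the p-values measure only the spread between arrays.

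As background, neurofilament proteins and α-internexin form the intermediate filaments of axons, and tubulin, tau and the stathmins make up or regulate their microtubules. Neurons release transmitters from synaptic vesicles through synaptotagmin and the SNARE proteins, and peptides from granules that hold granins. Many genes of this kind are held off in non-neuronal cells by the repressor REST, and Ewing sarcoma cells are known to transcribe a number of neural genes.

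The median signal per array lay between 92.3 and 213 in the 67 arrays analyzed, and between 0.221% and 22.4% of an array's values lay under 10, the floor set before log2 values were taken. The replicate 3 array of puromycin EC50 on day 5 held blood transcripts (HBB, beta globin, 30500) and was left out. Of 9 Ewing sarcoma markers on it, 6 lay below their range on the other arrays (NKX2-2, an EWS/FLI target, 156, against at least 1380, and STEAP1, a membrane protein, 30.9, against at least 2350), 2 within it (PRKCB 2740 and GLI1 54.4) and 1 above it (FLI1 3920, against at most 3760). On the other arrays 9 of 11 Ewing sarcoma markers were measured, with a summed signal of 21800 to 53500. The summed signal of 10 of 13 blood markers was 43.5 to 634 and that of 5 of 8 glial and Schwann cell markers 58.3 to 437, with medians of 5.55 for GFAP and 15.4 for S100B. Mesenchymal markers (8 of 8 measured) summed to 25000 to 67100 and epithelial markers (7 of 7) to 7100 to 31400. Replicate 3 of ARA-C EC50 on day 3 was the array with 0.221% of values under the floor, and replicate 2 of ARA-C 2xEC50 at 24 h had 0.941%, against 20.7% at most in its group. Without the first, 3 members were called higher and 2 lower in its comparison, against 7 and 1 with it, and without the second 3 and 1, against 5 and 0.

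Vehicle arrays of day 5 fell into separate states by their place on the array plate, and this has to be read before any day 5 result. Vehicle replicates 1 to 3 lay in plate rows A-F with nearly all treated arrays, and replicates 4 to 6 in rows G-H with ARA-C 2xEC50. Between G-H and A-F vehicle, 0 of 34 members were called higher and 0 lower at 24 h (0.117% and 0.329% of all probe sets) and on day 3 (0.122% and 0.671%), with 2 and 5 members at an unadjusted p under 0.05 in limma, but on day 5 there were 3 higher and 6 lower (15.5% and 6.62% of all probe sets). GAP43, the growth cone protein, had signals of 203, 193 and 248 in G-H vehicle on day 5, against 1470, 1200 and 1270 in A-F vehicle (log2 difference -2.61 ± 0.16, SE). For NEFM, the medium neurofilament, the G-H signals were 87, 104 and 109 and the A-F signals 508, 421 and 481. In the other direction SYT1, the calcium sensor of vesicle release, had 2530, 2540 and 2650 in G-H vehicle, against 1090, 978 and 741 in A-F vehicle. The plate parts did not overlap for these genes. NEFL, INA, TUBB3 and CHGB were also lower in G-H (log2 differences -1.75, -1.47, -0.35 and -1.49), and SNAP25 and NCAM1 higher (1.58 and 0.80). Each treated group is therefore set against vehicle of its own time and plate part, and the day 5 calls that change against the other part are listed after the counts.

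**Figure D1:**
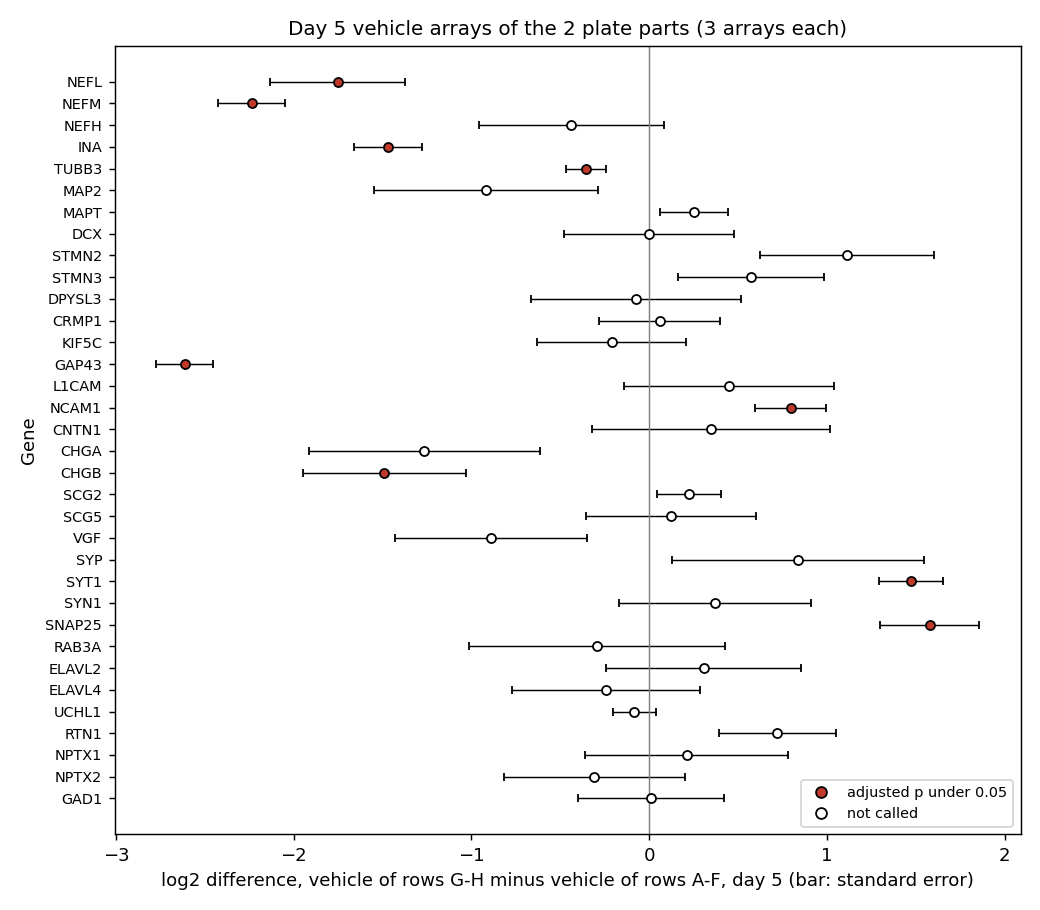
Difference of log2 signal between day 5 vehicle arrays in plate rows G-H and rows A-F (x axis, with SE, n = 3 each) for each of the 34 neuronal genes (y axis). Red points passed an adjusted p of 0.05: 6 lie left of 0, led by GAP43, and 3 right of it, SNAP25, SYT1 and NCAM1.

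Promoter windows were at hand for 24 of the 34 members and not for the other 10. Windows are shown for 3 of the 24: GAD1, which rose furthest, SYT1, which moved in opposite directions with ARA-C and doxorubicin, and GAP43, which fell with puromycin and doxorubicin. Their genes lie on GRCh38.p14 at chromosome 2, 170813210 to 170861151 (GAD1), chromosome 12, 78863982 to 79452008 (SYT1), and chromosome 3, 115623510 to 115721483 (GAP43). Each window holds 250 bases before and 50 after a RefSeq start site on GRCh38.p14, at chr2:170816637-170816936, chr12:78864524-78864823 and chr3:115623260-115623559, all on the plus strand. The GAD1 and SYT1 windows lie inside the span of the gene, so that their start sites are not its first base. Capitals mark matches, on either strand, to TATAAA (the core promoter box of that name), to CCAAT (bound by the factor NF-Y), to GGGCGG (bound by the factor SP1) and to GGAAGGAA, a repeat of the core that ETS factors such as FLI1 bind.
GAD1: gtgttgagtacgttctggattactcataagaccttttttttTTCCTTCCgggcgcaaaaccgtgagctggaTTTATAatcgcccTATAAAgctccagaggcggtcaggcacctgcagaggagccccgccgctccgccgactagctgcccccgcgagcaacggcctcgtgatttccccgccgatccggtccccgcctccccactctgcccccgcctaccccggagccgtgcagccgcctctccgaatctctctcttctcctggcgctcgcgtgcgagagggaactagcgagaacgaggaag
SYT1: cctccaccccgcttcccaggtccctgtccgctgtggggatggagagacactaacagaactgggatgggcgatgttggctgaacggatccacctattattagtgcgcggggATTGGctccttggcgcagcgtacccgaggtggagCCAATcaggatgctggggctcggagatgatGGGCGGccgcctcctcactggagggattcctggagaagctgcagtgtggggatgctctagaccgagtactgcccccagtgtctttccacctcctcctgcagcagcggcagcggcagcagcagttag
GAP43: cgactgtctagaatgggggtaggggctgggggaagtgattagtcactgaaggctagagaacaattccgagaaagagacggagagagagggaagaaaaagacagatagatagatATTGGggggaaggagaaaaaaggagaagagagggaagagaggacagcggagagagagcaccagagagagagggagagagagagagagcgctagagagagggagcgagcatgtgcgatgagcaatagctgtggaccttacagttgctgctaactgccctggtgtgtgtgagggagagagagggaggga
GAD1 held TATAAA at 179 bases (minus strand) and 166 bases (plus strand) before the start site of its window and GGAAGGAA (minus strand) 209 bases before that site. A TATAAA was present in 11.5% of all 35114 windows and in 12.2% of the 49 windows of the 24 members that had any. SYT1 held CCAAT at 140 and 106 bases and GGGCGG at 76 bases before the start site of its window, and GAP43 a CCAAT at 137 bases. CCAAT was in 36.7% of member windows and 34.6% of all, GGGCGG in 51% and 45%, and GGAAGGAA in 6.12% and 3.67%. Parts of the REST site were searched too, and its left-hand part, TTCAGCACC, was found for SYN1 only (0.376% of all windows) and its right-hand part for VGF only (0.259%). Matches to different motifs did not overlap in the windows shown. The cAMP response element TGACGTCA lay in windows of KIF5C, CHGA, VGF and SYN1 (8.16% of member windows, 1.85% of all). A match is a description of these letters and not a site of binding.

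Over the 17 comparisons with vehicle that had replicates, 25 of the 34 neuronal genes, or 73.5%, passed the test at least in 1 (limma, adjusted p under 0.05 over all 22215 probe sets), against 72.1% of all probe sets. There were 72 rises and 58 falls. Rises made up 12.5% of the members' comparisons, against 5.96% over all probe sets, and falls 10%, against 11.6%. The members were chosen with earlier results known and are each the brightest probe set of a gene, so that these shares only describe the list. Of the 25 genes, 11 only rose, 6 only fell, and 8 rose in some comparisons and fell in others. The neuronal genes did not move as a block: INA and GAD1 rose in 10 and 9 comparisons, and GAP43, MAPT and NCAM1 fell in 10, 9 and 7. Of the 130 calls, 68 held in every fit without 1 array of the comparison, and none changed direction. A-F vehicle of day 3 and, on day 5, doxorubicin 2xEC50 and puromycin EC50 had 2 arrays each in the analysis. A fit without 1 of these left a single array, and the spread then came from the other groups alone. The 9 genes that passed in none of these 17 comparisons were NEFH, MAP2, STMN3, CRMP1, CNTN1, CHGA, CHGB, SYP and NPTX2. DCX, CHGA, ELAVL4, NPTX2 and L1CAM were under the floor on 46, 37, 40, 40 and 34 of the 67 arrays, and 16 genes were above it on all of them.

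The counts by comparison follow, each with the share of all probe sets called in the same direction. With ARA-C EC50, 0 members rose (4.58% of all probe sets) and 3 fell (12%) at 24 h, 7 rose (5.8%) and 1 fell (4.5%) on day 3, and 3 rose (8.36%) and 6 fell (33.3%) on day 5. The 7 risen members of day 3 made up 20.6% of the 34, and the median change of all members was 0.46, against 0.21 over all probe sets. With ARA-C 2xEC50, 5 rose (7.41%) and 0 fell (1.37%) at 24 h, 10 rose (11.2%) and 0 fell (7.77%) on day 3, and 9 rose (11.8%) and 7 fell (18.8%) on day 5. The median on day 3 was 0.33, against 0.01 over all probe sets.

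With doxorubicin EC50, 1 rose (1.66%) and 1 fell (3.83%) at 24 h, 4 rose (6.27%) and 3 fell (9.75%) on day 3, and 6 rose (10.1%) and 6 fell (22.6%) on day 5. With doxorubicin 2xEC50, 3 rose (5.05%) and 2 fell (9.98%) at 24 h, 9 rose (6.91%) and 3 fell (8.67%) on day 3, and 9 rose (13.7%) and 10 fell (34.6%) on day 5. The 9 risen members of day 3 made up 26.5% of the 34, and the median of all members was 0.56, against 0 over all probe sets.

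With puromycin EC50, 0 rose (1.82%) and 3 fell (11.6%) at 24 h, 2 rose (0.365%) and 2 fell (2.93%) on day 3, and 2 rose (1.6%) and 5 fell (3.3%) on day 5, the last being 14.7% of the members. With puromycin 2xEC50, 0 rose (2.16%) and 3 fell (5.69%) at 24 h, and 2 rose (2.56%) and 3 fell (6.84%) on day 3. The share of members that fell was near that of all probe sets for ARA-C 2xEC50 on day 5 (7 of 34 members, against 18.8%). The same held for doxorubicin 2xEC50 on day 3 (8.82% of members, against 8.67%). It was above that of all probe sets for puromycin EC50 on days 3 and 5 and puromycin 2xEC50 at both times. These are counts of 2, 5, 3 and 3 members. In the other comparisons the share was below. Falls outside these puromycin comparisons are therefore no result about neuronal genes as a group. Inside them the counts are too small to be one, and puromycin EC50 on day 5 had only 2 arrays. ARA-C EC50 on day 3 rests on only 2 vehicle arrays, and a fit without 1 of them leaves a single vehicle array. Its counts of members are therefore not firm.

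The split between rises and falls moved with the scaling. After quantile normalization there were 76 rises and 51 falls in all. For ARA-C EC50 the members called were 2 higher and 2 lower at 24 h, 5 and 2 on day 3 and 6 and 4 on day 5, and for ARA-C 2xEC50 4 and 2 at 24 h and 7 and 2 on day 3. Doxorubicin at 24 h gave 1 and 0 at EC50 and 3 and 0 at 2xEC50. Puromycin EC50 gave 1 and 2 at 24 h and 3 and 4 on day 5, and puromycin 2xEC50 at 24 h gave 3 and 2. Before quantile normalization the median change of all probe sets was -0.21 with ARA-C EC50 on day 5 and 0.27 with ARA-C 2xEC50 at 24 h.

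The vehicle arrays chosen mattered on day 5. Of 63 day 5 calls against vehicle of the same plate part, 49 were kept against the other part, 9 were lost and 5 changed direction. Lost with ARA-C 2xEC50 were NEFL, NEFM, GAP43, TUBB3, STMN2, VGF and SYN1 (0.20, 0.22, 0.12, 0.22, -0.43, 0.52 and -1.30 against rows A-F). Against rows G-H, RTN1 was lost with ARA-C EC50 (0.43) and TUBB3 with doxorubicin 2xEC50 (-0.08). The opposite direction was seen for NEFM with ARA-C EC50, SYT1 and SNAP25 with ARA-C 2xEC50, and GAP43 with both doxorubicin doses. All day 5 calls of GAD1, MAPT, NCAM1 and KIF5C were among the 49 kept.

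A further 27 changes passed only against the other part. Against rows G-H, GAP43 was higher with ARA-C EC50 and puromycin EC50 (2.96 and 2.37) and SYT1 lower (-1.59 and -1.44). NEFL was higher with the same treatments (1.70 and 3.03), INA with ARA-C EC50 (1.60) and CHGB with ARA-C EC50 and both doxorubicin doses (1.61, 1.44 and 1.34), and SNAP25 was lower with ARA-C EC50 and doxorubicin EC50 (-1.88 and -1.99). Some rises that passed against both parts were larger against G-H: NEFM and NEFL with doxorubicin EC50 (3.03 and 2.97, against 0.80 and 1.21 with rows A-F) and INA with puromycin EC50 (2.69 and 1.22).

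**Figure D2:**
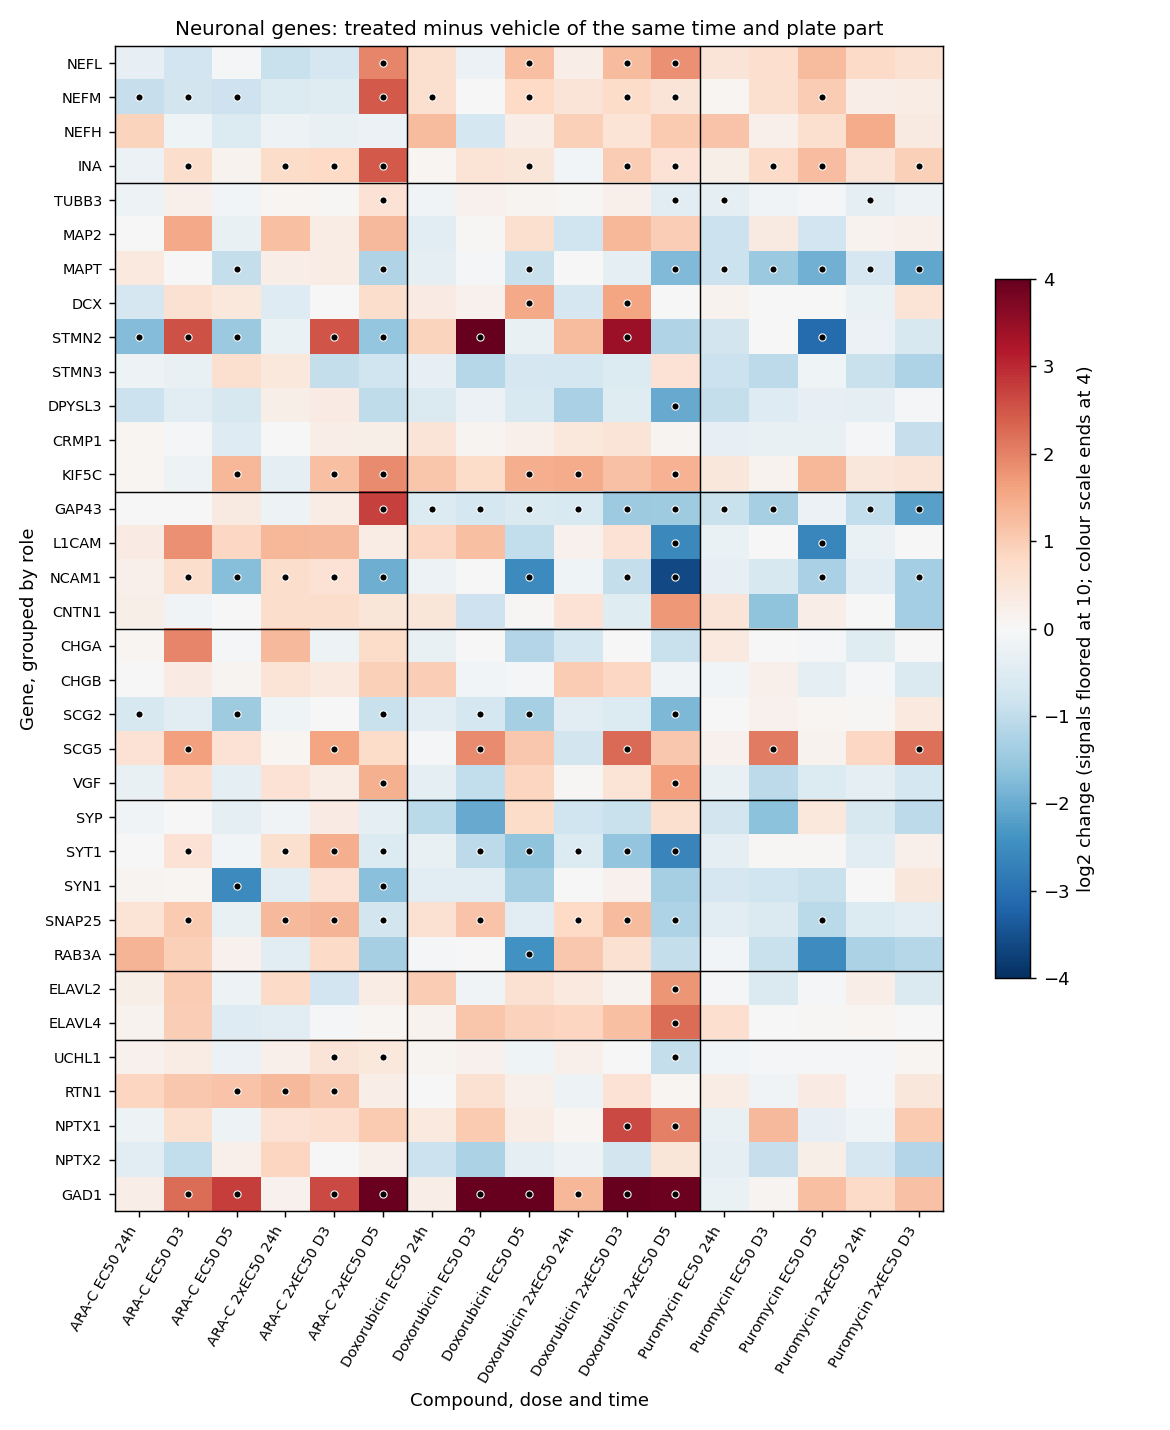
Log2 change against vehicle (color, limited to 4 either way) for the 34 neuronal genes (rows, by role) in the 17 comparisons with replicates (columns, by compound, dose and time). Black dots mark an adjusted p under 0.05, 130 in all; GAD1, INA and KIF5C carry dots on rises only, and MAPT and SCG2 on falls only.

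GAD1, which makes the transmitter GABA from glutamate, had the largest rises. Its mean over all arrays was under the median of all probe sets, and its signals are shown because of the values seen. With doxorubicin EC50 it had 184, 256 and 208 on day 3 and 242, 290 and 331 on day 5, against 0.924 and 3.73 and then 0.861, 0.609 and 0.695 in vehicle-treated cells. The vehicle signals were all under the floor, and the increase was at least 21.4-fold on day 3 (log2 change 4.42 ± 0.46, SE, adjusted p = 1.1e-10) and at least 28.6-fold on day 5 (4.84 ± 0.41, adjusted p = 4.5e-14). With ARA-C EC50 it reached 49.7, 39.7 and 51.4 on day 3 (at least 4.66-fold, adjusted p = 6e-04) and 91.5, 46 and 76.3 on day 5 (at least 6.84-fold, adjusted p = 1.3e-07). No treated array of these groups overlapped with vehicle.

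At 2xEC50, GAD1 rose by a log2 change of 2.63 ± 0.41 on day 3 and 3.94 ± 0.41 on day 5 with ARA-C, where vehicle rows G-H averaged 10.3 and 5.21 and signals under the floor were counted as 10. With doxorubicin 2xEC50 it rose by 1.32 at 24 h, and by at least 17.6-fold on day 3 and at least 15.2-fold on day 5, where all vehicle signals were under the floor. The 24 h call was lost without doxorubicin replicate 2 (1.09, adjusted p = 0.14). In puromycin-treated cells it passed in no comparison with vehicle of its own plate part, with 25.7, 25.4 and 17.9 at 2xEC50 on day 3. With puromycin EC50 on day 5 the change was 1.21 against A-F vehicle, which did not pass, and 1.20 against G-H vehicle, which did. The second brightest of its 3 probe sets gave smaller day 3 changes that did not pass, 1.25 for ARA-C EC50 (adjusted p = 0.25) and 1.58 for doxorubicin EC50 (adjusted p = 0.13), while its day 5 changes, 2.19 and 3.66, passed.

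STMN2 and MAPT, both of which act on axonal microtubules, behaved unlike each other. STMN2 encodes a stathmin that destabilizes microtubules in growth cones. Its mean, too, was under that median, and its values were picked after they were seen. On day 3 it had 373, 396 and 375 with doxorubicin EC50 and 71.4, 92.4 and 116 with ARA-C EC50, against 3.62 and 24.1 in vehicle-treated cells. The rises were 4.62 ± 0.54 (adjusted p = 3.4e-09) and 2.56 ± 0.54 (adjusted p = 0.00084), and the ARA-C call was lost without vehicle replicate 1 (1.93, adjusted p = 0.11). At 2xEC50 on day 3 it rose by 3.43 with doxorubicin and 2.53 with ARA-C.

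By day 5 STMN2 was itself high in vehicle-treated cells, 208, 195 and 168 in rows A-F and 397, 419 and 412 in rows G-H. It was then lower with ARA-C EC50 (116, 26.4 and 101, change -1.49 ± 0.49, adjusted p = 0.01) and with puromycin EC50 (50.3 and 7.45, change -3.08 ± 0.54, adjusted p = 0.00012). Each of these calls was lost without 1 array: without ARA-C replicate 2 the change was -0.81 (adjusted p = 0.23) and without puromycin replicate 2 it was -1.91 (adjusted p = 0.13). The change with ARA-C 2xEC50 on day 5, -1.54, was -0.43 (adjusted p = 0.65) against rows A-F. At 24 h STMN2 fell with ARA-C EC50 (15.1, 11.4 and 2.01 in treated cells, 25.3, 37.8 and 67.4 in vehicle-treated cells, change -1.74 ± 0.49), a call lost without vehicle replicate 3 (-1.37, adjusted p = 0.088).

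MAPT, which encodes tau, only fell, in 9 of the 17 comparisons. With puromycin EC50 it had 458, 456 and 464 at 24 h, 324, 342 and 330 on day 3 and 354 and 341 on day 5, against 1020, 681 and 844, then 921 and 932, then 1180, 1560 and 1270 in vehicle-treated cells. The treated arrays lay below all vehicle arrays at each time, with log2 changes of -0.86 ± 0.19, -1.48 ± 0.22 and -1.93 ± 0.22. At 2xEC50 of puromycin the day 3 signals were 236, 275 and 161 (-2.08 ± 0.22, adjusted p = 2.1e-10). With ARA-C and doxorubicin it fell on day 5 only: by 0.96 and 1.20 on the log2 scale with ARA-C at EC50 and 2xEC50, and by 0.89 and 1.77 with doxorubicin. Of the 9 calls 8 held in every fit without 1 array, the exception being puromycin 2xEC50 at 24 h (-0.67), which was -0.53 (adjusted p = 0.18) without vehicle replicate 1.

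Among the other genes of microtubules and their regulators, KIF5C, a neuronal kinesin heavy chain, rose in 6 comparisons, by 1.34 with ARA-C EC50 on day 5, 1.22 and 1.88 with ARA-C 2xEC50 on days 3 and 5, 1.45 with doxorubicin EC50 on day 5, and 1.49 and 1.38 with doxorubicin 2xEC50 at 24 h and day 5. The ARA-C 2xEC50 call of day 5 (194, 144 and 170 in treated cells, 33.7, 54.3 and 51.3 in vehicle-treated cells) was kept in every fit without 1 array. The other KIF5C calls were lost without a single vehicle array: replicate 4 for ARA-C 2xEC50 on day 3 (0.94, adjusted p = 0.19), and replicate 3 of the time for ARA-C EC50 on day 5 (0.85, adjusted p = 0.13), doxorubicin EC50 on day 5 (0.96, adjusted p = 0.1), and doxorubicin 2xEC50 at 24 h (1.02, adjusted p = 0.14) and on day 5 (0.89, adjusted p = 0.13).

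TUBB3, the neuronal β-tubulin, had signals of 7580 to 13900 in vehicle-treated cells and moved little: 0.58 ± 0.11 with ARA-C 2xEC50 on day 5 (0.22, adjusted p = 0.17, against rows A-F), -0.44 with doxorubicin 2xEC50 on day 5 (-0.08, adjusted p = 0.62, against rows G-H), and -0.38 and -0.35 with the puromycin doses at 24 h, calls lost without vehicle replicate 1 (adjusted p = 0.068 and 0.15). DCX, a microtubule-associated protein of migrating neurons, was under the floor in most groups and rose with doxorubicin EC50 on day 5 (44, 17.2 and 31; at least 2.86-fold) and 2xEC50 on day 3 (24, 33.5 and 32.2; at least 2.96-fold), and these calls were lost without doxorubicin replicate 1 (adjusted p = 0.086) and vehicle replicate 1 (adjusted p = 0.18). DPYSL3, which takes part in axon guidance, fell with doxorubicin 2xEC50 on day 5 (12.7 and 5.74, against 34.2, 69 and 39.4 in vehicle-treated cells), a call lost without doxorubicin replicate 3 (-1.83, adjusted p = 0.073), and its other probe set gave 1.01 (adjusted p = 0.22). MAP2, STMN3 and CRMP1 passed in no comparison with vehicle of their own plate part. Against G-H vehicle on day 5 MAP2 passed as a rise with doxorubicin EC50 and 2xEC50 (1.55 and 1.89). STMN3 passed there as a fall with doxorubicin EC50 (-1.24).

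**Figure D3:**
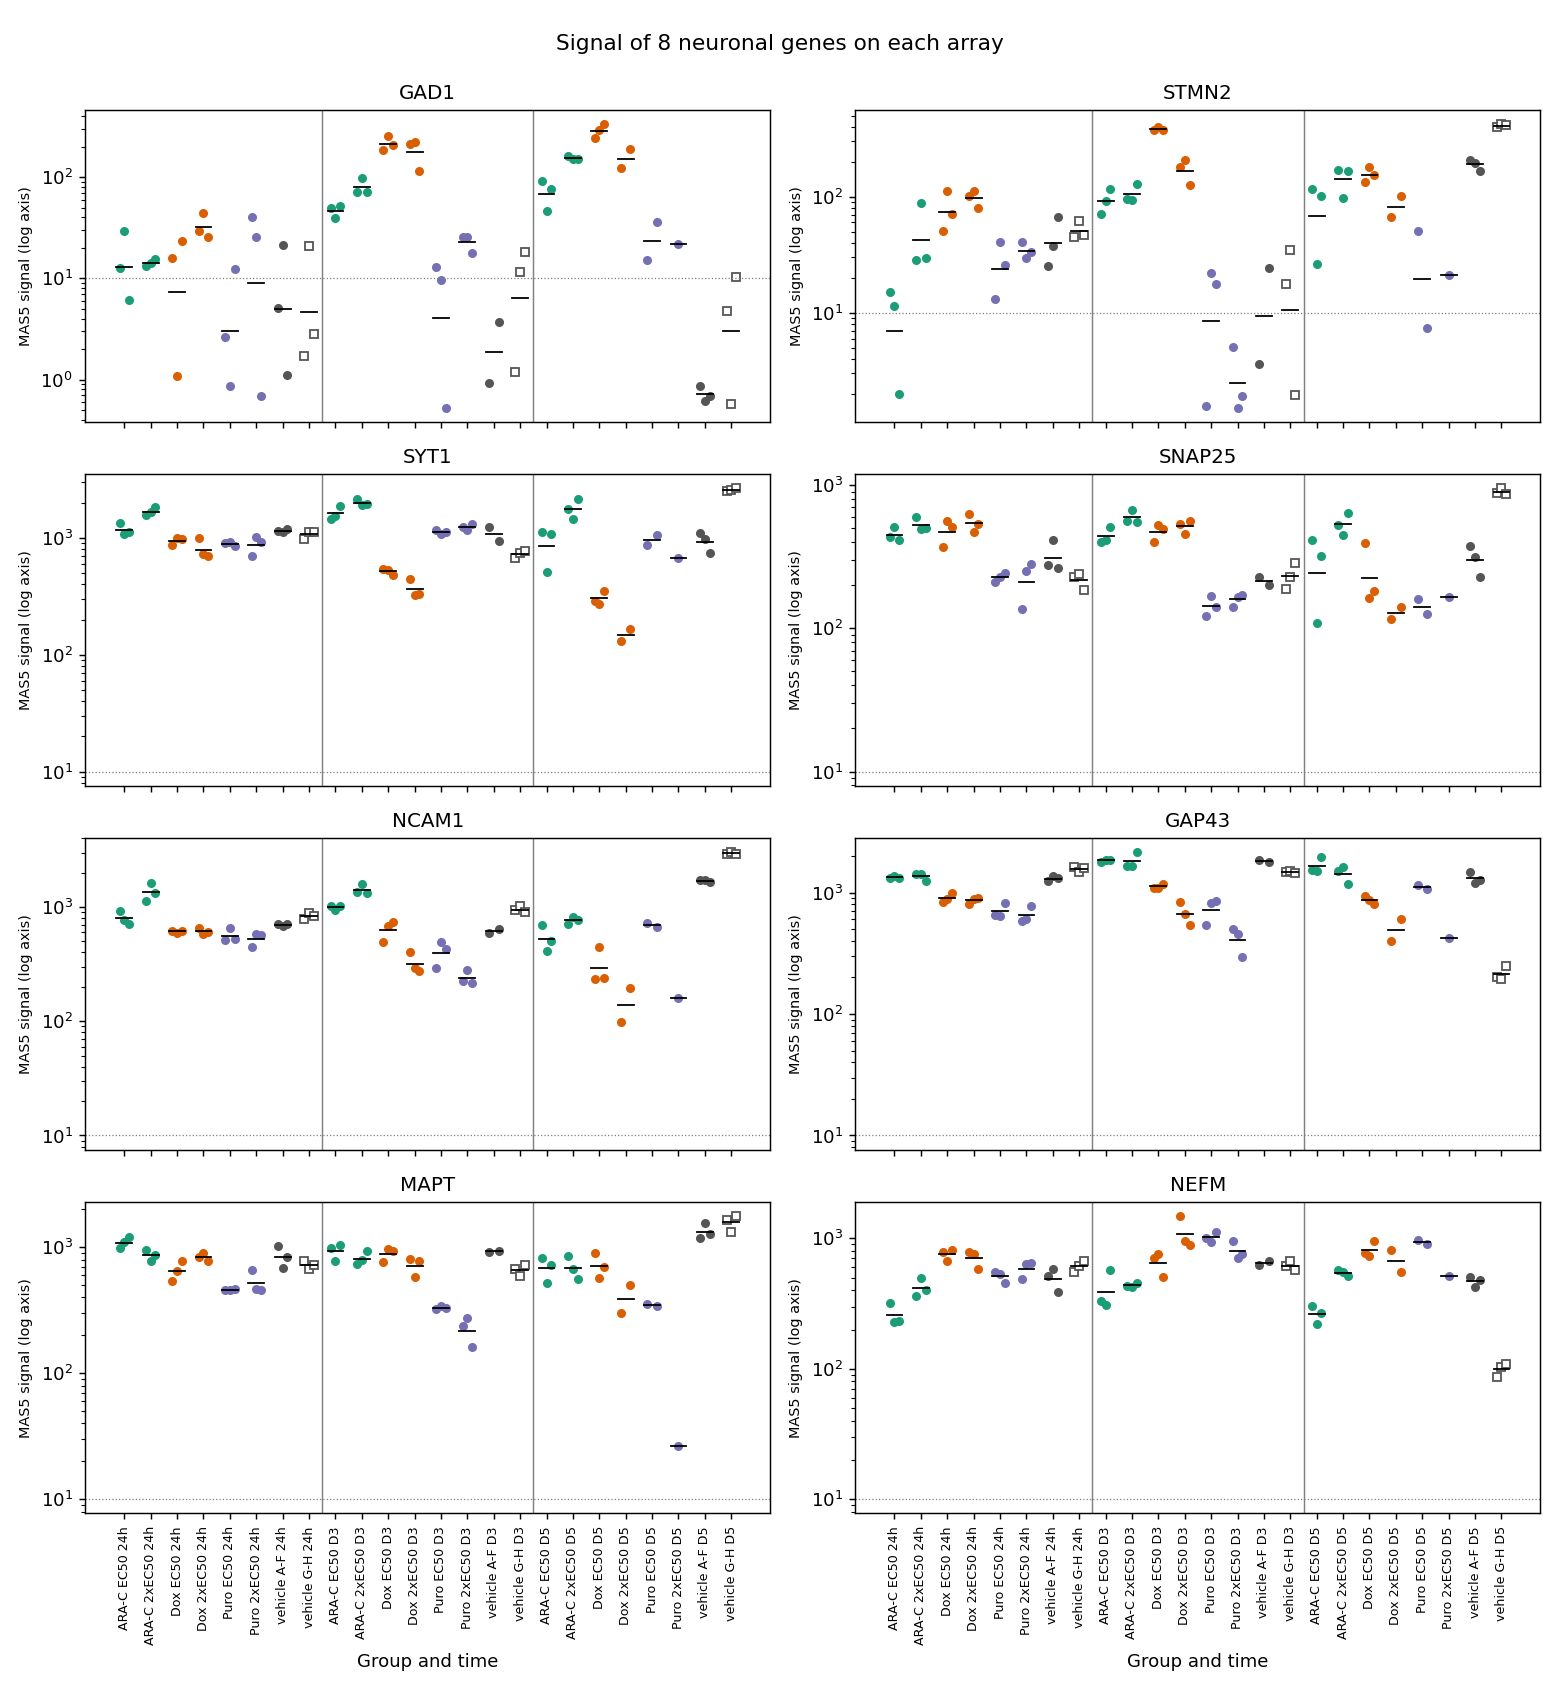
Signal on a log axis (y axis) for 8 neuronal genes, with each array in the analysis as a point, by time and treatment (x axis; vehicle last at each time). Ticks mark geometric means, the dotted line the floor of 10, green ARA-C, orange doxorubicin, purple puromycin, filled dark circles vehicle in plate rows A-F and open squares rows G-H. GAD1 stays near the floor with vehicle and reaches 331 with doxorubicin EC50 on day 5, and GAP43 and NEFM show the low G-H vehicle of day 5.

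Of the 4 intermediate filament genes, INA and NEFL passed only as rises (10 and 4), NEFM as 6 rises and 3 falls, and NEFH not at all. INA, which encodes α-internexin, a filament subunit of developing neurons, passed in 10 comparisons and rose in each. With doxorubicin 2xEC50 on day 3 it had 1550, 1400 and 1330, and with puromycin 2xEC50 1440, 1380 and 1230, against 817 and 597 in vehicle-treated cells (1.03 ± 0.21 and 0.95 ± 0.21). With puromycin EC50 on day 5 it had 1070 and 1310, against 618, 428 and 492 (1.22 ± 0.21, adjusted p = 7.1e-05). All treated arrays lay above the vehicle arrays in these comparisons. With ARA-C 2xEC50 it rose by 0.73, 0.80 and 2.46 at the 3 times, and the last was 0.99 (adjusted p = 4.1e-05) against A-F vehicle. The smaller rises were lost without 1 array: without vehicle replicate 2, INA was at 0.47 with ARA-C EC50 on day 3 (0.69 with it), 0.53 with puromycin EC50 on day 3 (0.75), 0.73 with puromycin 2xEC50 on day 3 (0.95), and 0.36 and 0.44 with the doxorubicin doses on day 5 (0.48 and 0.57), and none of these passed. The ARA-C 2xEC50 call of 24 h was 0.64 (adjusted p = 0.058) without vehicle replicate 5.

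NEFM, the medium neurofilament, moved in opposite directions with compound. It was lower with ARA-C EC50 at every time, with 317, 230 and 233 at 24 h and 301, 220 and 269 on day 5, against 518, 581 and 388, then 508, 421 and 481 in vehicle-treated cells (-0.93 ± 0.19 and -0.84 ± 0.19). The day 3 fall, -0.73, was -0.68 (adjusted p = 0.16) without vehicle replicate 2. With doxorubicin EC50 on day 5 it rose (768, 736 and 953, change 0.80 ± 0.19, adjusted p = 0.00082), and the treated arrays of both compounds lay outside the vehicle range on their side. Rises with doxorubicin EC50 at 24 h (0.63), doxorubicin 2xEC50 on days 3 and 5 (0.74 and 0.51) and puromycin EC50 on day 5 (1.01) were each lost without 1 array: vehicle replicate 3 (0.46, adjusted p = 0.28), doxorubicin replicate 1 (0.52 and 0.22, adjusted p = 0.13 and 0.56) and puromycin replicate 1 (0.95, adjusted p = 0.053).

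NEFL, the light neurofilament, had 318, 324 and 316 with doxorubicin EC50 and 537 and 437 with 2xEC50 on day 5, against 193, 101 and 135 in vehicle-treated cells (1.21 ± 0.38 and 1.81 ± 0.42). The call at EC50 was 0.99 (adjusted p = 0.071) without vehicle replicate 2, and the rise of 1.28 with 2xEC50 on day 3 was 1.23 (adjusted p = 0.16) without vehicle replicate 2 of that day. ARA-C 2xEC50 on day 5 gave rises of 2.45 for NEFM and 1.95 for NEFL against G-H vehicle, and 0.22 (adjusted p = 0.52) and 0.20 (adjusted p = 0.82) against A-F vehicle, so that they follow the vehicle arrays chosen. The fall of NEFM with ARA-C EC50 on day 5 turned to 1.40 against G-H vehicle. NEFH, the heavy neurofilament, passed in no comparison with vehicle of its own plate part. Against G-H vehicle it passed as a rise with doxorubicin 2xEC50 on day 5 (1.48).

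Of the 4 genes of the growth cone and of adhesion, GAP43 fell in 10 comparisons and rose in 1, NCAM1 fell in 7 and rose in 3, L1CAM fell in 2 and CNTN1 passed in none. GAP43 fell with puromycin at both doses and with doxorubicin at both doses and all 3 times. With puromycin 2xEC50 it had 585, 610 and 778 at 24 h and 501, 455 and 297 on day 3, against 1240, 1360 and 1310, then 1870 and 1770 in vehicle-treated cells (-1 ± 0.16 and -2.16 ± 0.18, adjusted p = 3e-05 and 4.4e-13). At EC50 the changes were -0.89 ± 0.16 and -1.33 ± 0.18. On day 5 puromycin EC50 had 1150 and 1070, against 1470, 1200 and 1270, and did not pass. With doxorubicin 2xEC50 GAP43 had 837, 663 and 541 on day 3 and 397 and 607 on day 5 (-1.44 ± 0.18 and -1.41 ± 0.18). No puromycin array of 24 h or day 3 and no doxorubicin array overlapped with vehicle of its plate part.

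The doxorubicin EC50 changes of GAP43 were smaller, -0.54, -0.69 and -0.58 at the 3 times, and the first and second were lost without doxorubicin replicate 1 (-0.48, adjusted p = 0.17) and vehicle replicate 1 (-0.65, adjusted p = 0.069). In ARA-C EC50 cells GAP43 had 1310, 1380 and 1310 at 24 h and 1790, 1860 and 1860 on day 3, and it passed at no time against A-F vehicle (0.35 on day 5, and 2.96 against G-H vehicle). Its one rise, 2.73 ± 0.16 with ARA-C 2xEC50 on day 5 (1510, 1630 and 1170), was 0.12 (adjusted p = 0.72) against A-F vehicle. Against G-H vehicle the day 5 changes with doxorubicin were 2.03 at EC50 and 1.20 at 2xEC50, the opposite sign to the A-F values.

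NCAM1, the neural cell adhesion molecule, was higher early with ARA-C and lower late with every compound. With ARA-C it rose by 0.69 at EC50 on day 3 (1020, 948 and 1020 in treated cells, 597 and 638 in vehicle-treated cells) and by 0.69 and 0.57 at 2xEC50 at 24 h and on day 3. These early calls were lost without vehicle replicate 1 (0.64, adjusted p = 0.24) and without ARA-C replicate 2 (0.55 and 0.49, adjusted p = 0.16 and 0.15). On day 5 it had 689, 415 and 501 with ARA-C EC50, 235, 451 and 240 with doxorubicin EC50, 98.9 and 194 with doxorubicin 2xEC50, and 720 and 673.2 with puromycin EC50, against 1740, 1730 and 1640 in vehicle-treated cells. The changes were -1.70 ± 0.20, -2.53 ± 0.20, -3.62 ± 0.22 and -1.29 ± 0.22, with no overlap. With ARA-C 2xEC50 on day 5 it was -1.95 ± 0.20, and -1.15 (adjusted p = 8.5e-06) against A-F vehicle. On day 3 it had fallen with doxorubicin 2xEC50 (405, 291 and 277, change -0.95 ± 0.22) and puromycin 2xEC50 (227, 282 and 216, change -1.36 ± 0.22). NCAM1 has 5 probe sets, and the second brightest gave -0.58 for doxorubicin EC50 and 0.80 for ARA-C EC50 on day 5, neither of which passed, and -1.71 for doxorubicin 2xEC50, which did.

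L1CAM, another adhesion molecule, was under the floor on 34 of 67 arrays and near or above 50 in day 5 vehicle (60.6, 72.9 and 51.9). It was lower with doxorubicin 2xEC50 on day 5 (9.99 and 10.7, change -2.57 ± 0.66) and with puromycin EC50 (5.05 and 3.19; at least 6.12-fold lower), and the puromycin call was lost without replicate 2 (adjusted p = 0.11). CNTN1, an axonal contactin, passed in no comparison.

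SYT1, the calcium sensor of synaptic vesicle release, moved in opposite directions with ARA-C and doxorubicin. It had 2130, 1910 and 1940 with ARA-C 2xEC50 on day 3, against 674, 736 and 776 in G-H vehicle (1.45 ± 0.18, adjusted p = 7.2e-09). With doxorubicin EC50 on day 3 it had 538, 535 and 485, and with 2xEC50 444, 323 and 330, against 1240 and 941 in A-F vehicle (-1.06 ± 0.20 and -1.58 ± 0.20). On day 5 the doxorubicin signals were 290, 274 and 354 at EC50 and 131 and 167 at 2xEC50, against 1090, 978 and 741 (-1.60 ± 0.18 and -2.65 ± 0.20). Treated and vehicle arrays overlapped in none of these.

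Further SYT1 calls were lost without 1 array, with changes of the same direction. Its rise with ARA-C EC50 on day 3 (1460, 1550 and 1860; 0.58, adjusted p = 0.05) was 0.38 (adjusted p = 0.41) without vehicle replicate 2, that with ARA-C 2xEC50 at 24 h (1570, 1650 and 1820; 0.64) was 0.58 (adjusted p = 0.069) without vehicle replicate 4, and the fall with doxorubicin 2xEC50 at 24 h (-0.54) was -0.45 (adjusted p = 0.17) without replicate 3. With ARA-C 2xEC50 on day 5 SYT1 had 1760, 1460 and 2140, below the 2530, 2540 and 2650 of G-H vehicle (-0.54; -0.41, adjusted p = 0.13, without ARA-C replicate 2) and above A-F vehicle (0.93, adjusted p = 5.1e-05). Puromycin EC50 left it at 1170, 1070 and 1130 on day 3, and it passed in no puromycin comparison with vehicle of its own plate part (0.04 on day 5, and -1.44 against G-H vehicle).

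SNAP25, a SNARE protein of the nerve terminal, was high on day 3 with both ARA-C and doxorubicin. It had 400, 414 and 511 with ARA-C EC50, 400, 526 and 490 with doxorubicin EC50, and 532, 459 and 564 with doxorubicin 2xEC50, against 228 and 200 in A-F vehicle (1.04, 1.13 and 1.27). With ARA-C 2xEC50 it had 601, 496 and 498 at 24 h and 565, 673.1 and 556 on day 3, against 228, 241 and 186, then 187, 230 and 288 in G-H vehicle (1.29 ± 0.28 and 1.37 ± 0.28). The groups did not overlap, and the ARA-C 2xEC50 calls were kept in every fit without 1 array, while the 3 others were lost without vehicle replicate 2 (0.94, 1.04 and 1.18, adjusted p = 0.19, 0.098 and 0.054). By day 5 SNAP25 was lower with doxorubicin 2xEC50 (116 and 142, against 375, 316 and 229, change -1.23 ± 0.32). Weaker calls were the 24 h rise with doxorubicin 2xEC50 (0.80; 0.68, adjusted p = 0.18, without vehicle replicate 3), and the day 5 falls with puromycin EC50 (-1.09; -0.91, adjusted p = 0.37, without replicate 2) and ARA-C 2xEC50 (-0.75; -0.62, adjusted p = 0.16, without replicate 2; 0.83 against A-F vehicle). The second SNAP25 probe set passed in none of these comparisons with vehicle and gave 1.38 and 0.14 for ARA-C 2xEC50 at 24 h and on day 3.

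SYN1, a synapsin that tethers vesicles, fell with ARA-C EC50 on day 5 (9.17, 12.4 and 26.1, against 79.7, 105 and 76.2, change -2.54 ± 0.54), and with 2xEC50 (45.9, 41.7 and 22; -1.67), a call lost without ARA-C replicate 3 (-1.34, adjusted p = 0.1) and against A-F vehicle (-1.30, adjusted p = 0.082). RAB3A, a vesicle GTPase, fell with doxorubicin EC50 on day 5 (38.6, 25.4 and 40.5, against 167, 187 and 200, change -2.43 ± 0.72, adjusted p = 0.0064). Neither overlapped with vehicle. SYP, a vesicle membrane protein, passed in no comparison.

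The granule genes SCG2 and SCG5 went opposite ways. SCG2, a granin, was lower on day 5 with ARA-C EC50 (396, 199 and 426), doxorubicin EC50 (372, 309 and 368) and doxorubicin 2xEC50 (273 and 227) than with vehicle (952, 903 and 759), without overlap (-1.43 ± 0.18, -1.32 ± 0.18 and -1.80 ± 0.20). With ARA-C 2xEC50 on day 5 it fell by 0.88 on the log2 scale. Its falls with ARA-C EC50 at 24 h (-0.65) and doxorubicin EC50 on day 3 (-0.71) were lost without ARA-C replicate 3 (-0.55, adjusted p = 0.075) and vehicle replicate 2 (-0.66, adjusted p = 0.1).

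SCG5, the chaperone of a prohormone convertase, rose on day 3 with every compound and dose, by 1.65 and 1.58 with ARA-C, 1.90 and 2.26 with doxorubicin and 2.08 and 2.21 with puromycin (EC50 first). The signals, chosen after they were seen, were 77.3, 82.9 and 71 with puromycin EC50 and 98.3, 90.7 and 74.3 with doxorubicin 2xEC50, against 4.54 and 32.9 in A-F vehicle. All of these 6 calls were lost when 1 vehicle array was left out, replicate 1 in rows A-F or replicate 4 in rows G-H. Without them the changes were 0.79 and 1.24 with ARA-C, 1.04 and 1.40 with doxorubicin and 1.22 and 1.35 with puromycin. VGF, a neuropeptide precursor, rose on day 5 with ARA-C 2xEC50 (1.41; 0.92, adjusted p = 0.29, without vehicle replicate 4, and 0.52, adjusted p = 0.6, against A-F vehicle) and doxorubicin 2xEC50 (169 and 193, against 79.8, 66.8 and 37.5; 1.63, and 1.31, adjusted p = 0.1, without vehicle replicate 3). The chromogranins CHGA and CHGB passed in no comparison with vehicle of their own plate part. Against G-H vehicle on day 5 CHGB passed as a rise with ARA-C EC50 (1.61) and with doxorubicin EC50 and 2xEC50 (1.44 and 1.34).

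The RNA-binding genes ELAVL2 and ELAVL4, of the neuronal Hu family, passed only with doxorubicin 2xEC50 on day 5. ELAVL4 had 88.9 and 50.6 there, against 3.87, 1.95 and 28.8 in vehicle-treated cells (2.24 ± 0.59, adjusted p = 0.0014), and ELAVL2 44.8 and 58.5, against 8.43, 33.7 and 3.75 (1.77 ± 0.61). The doxorubicin arrays had 14.2% and 16.1% of values under the floor, against 20.2% to 20.9% in A-F vehicle, and blood markers summed higher on them too. The part of this in the rises of dim members was not tested. The ELAVL2 call was lost without doxorubicin replicate 3 (1.58, adjusted p = 0.096).

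UCHL1, a ubiquitin hydrolase abundant in neurons, had signals of 9930 to 12700 in vehicle-treated cells. It was lower with doxorubicin 2xEC50 on day 5 (5930 and 6430, against 12700, 11300 and 11800, change -0.95 ± 0.13, adjusted p = 2e-08) and higher with ARA-C 2xEC50 on day 3 (13700, 14800 and 14500, against 10100, 10200 and 10100, change 0.50 ± 0.12) and day 5 (0.42). None of these overlapped with vehicle. RTN1, a reticulon of the endoplasmic reticulum, rose with ARA-C EC50 on day 5 (128, 102 and 104, against 71.5, 39.9 and 43.7, change 1.15 ± 0.33), where its other probe set gave -1.34 and G-H vehicle 0.43 (adjusted p = 0.3). RTN1 also rose with ARA-C 2xEC50 at 24 h and on day 3 (1.31 and 1.09), calls lost without ARA-C replicate 2 (1.06 and 0.98, adjusted p = 0.075 and 0.062), which at 24 h is the array with 0.941% of values under the floor (RTN1 138, against 90.4 and 76 in its replicates). NPTX1, a pentraxin secreted at synapses, rose with doxorubicin 2xEC50 on day 3 (59.9, 101 and 77.9, against 4.85 and 15.3, change 2.65 ± 0.64) and day 5 (54.8 and 45.9, against 6.28, 7.43 and 19.7, change 2 ± 0.64). Both NPTX1 calls were lost without 1 array, vehicle replicate 1 (adjusted p = 0.06) and doxorubicin replicate 1 (adjusted p = 0.058).

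The treated cultures also differed from vehicle in other respects. The summed signal of the Ewing sarcoma markers on day 5 was 21800 to 23700 with doxorubicin 2xEC50, 32000 to 33000 with doxorubicin EC50 and 24600 to 35000 with ARA-C EC50, against 38100 to 39400 in A-F vehicle and 51300 to 53500 in G-H vehicle. That of the epithelial markers was 30300 to 31400 with doxorubicin EC50 and 25800 to 29000 with 2xEC50 on day 5, against 11200 to 11700 in A-F vehicle, and 25200 to 27000 with doxorubicin EC50 on day 3, against 14000. KRT8 and KRT18, keratins of simple epithelia, rose by 1.78 and 1.35 with doxorubicin EC50 on day 5, and EPCAM, an epithelial adhesion molecule, by 2.22 with 2xEC50. With ARA-C 2xEC50 on day 5 the epithelial sum was 23100 to 25100, against 10600 to 12100 in G-H vehicle. Nearly all of the epithelial sum came from KRT18 and KRT8, with medians of 12700 and 2770 over the arrays analyzed. The medians of CDH1, EPCAM, KRT5, KRT14 and KRT19 were 5.02, 10.6, 3.88, 4.63 and 10.3, under or near the floor. The summed signal of mesenchymal markers was 30400 to 35200 with puromycin 2xEC50 on day 3, against 43000 to 45000. That of blood markers was 414 to 441 with doxorubicin 2xEC50 on day 5, against 121 to 144.

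RNA quality moved with treatment too. The log2 ratio of the 3' to the 5' probe set of ACTB, which grows as RNA is degraded, averaged 1.79 with ARA-C EC50, 1.78 with doxorubicin 2xEC50 and 1.79 with puromycin EC50 at 24 h, against 0.651 in A-F vehicle. With ARA-C 2xEC50 at 24 h it was lower than in G-H vehicle (0.657, against 0.983). On day 3 it was 1.31 with ARA-C EC50, against 0.589, and 1.70 with ARA-C 2xEC50, against 0.496 in G-H vehicle. On day 5 it was 4.55 with doxorubicin 2xEC50 and 3.71 with ARA-C EC50, against 1.98 in A-F vehicle, and 1.57 with ARA-C 2xEC50, against 0.607 in G-H vehicle. In the ARA-C EC50 group of day 5 the ratio was 5.07 in replicate 2, without which the STMN2 call was lost. It was 2.88 and 3.17 in replicates 1 and 3. The day 5 vehicle arrays themselves differed by plate part, with 1.92 to 2.08 in rows A-F and 0.529 to 0.664 in rows G-H. The part of RNA quality and of the other cell type markers in the changes of neuronal genes was not tested.

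The compounds were set against each other at the EC50 over 7 comparisons. On day 3, 5 members were higher and 3 lower with ARA-C than with doxorubicin (8.8% and 3.3% of all probe sets), 14 higher and 3 lower with ARA-C than with puromycin (15.6% and 5.79%), and 7 higher and 3 lower with doxorubicin than with puromycin (10.5% and 8.06%). The median difference was 0.81 for members and 0.37 for all probe sets between ARA-C and puromycin. GAD1 averaged 46.9 with ARA-C and 216 with doxorubicin (-2.20 ± 0.41, adjusted p = 0.00011), and 7.69 with puromycin, from which ARA-C differed by 2.10 and doxorubicin by 4.30. STMN2 had the same order, with 93.2, 382 and 13.7. SYT1 had another one, with 1620 under ARA-C, 519 under doxorubicin and 1120 under puromycin, and all 3 differences passed (1.64, -1.11 and 0.52). After quantile normalization the members called were 3 higher and 4 lower for ARA-C over doxorubicin and 10 and 4 for ARA-C over puromycin.

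Puromycin stood below the other compounds for SNAP25 on day 3 (442 with ARA-C and 472 with doxorubicin, against 144; 1.62 and 1.71), for MAPT (940 and 888, against 332; 1.49 and 1.41), for NCAM1 (996 and 638, against 404) and for GAP43 (1840 and 1120, against 738). It stood above them for NEFM (406 and 657, against 1020; -1.38 and -0.65) and SCG2 (639 and 524, against 970; -0.60 and -0.89). SNAP25 and MAPT showed no call between ARA-C and doxorubicin on day 3. Rises of CHGA, VGF, ELAVL2 and L1CAM with ARA-C over another compound on day 3 were lost without ARA-C replicate 3, the array with few values under the floor. Its VGF signal was 382, against 95.1 and 104 in its replicates, and its CHGA signal 166, against 19.8 and 18.1. Without it the differences from puromycin were 0.92, 1.08, 1.14 and 1.25, and none passed.

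**Figure D4:**
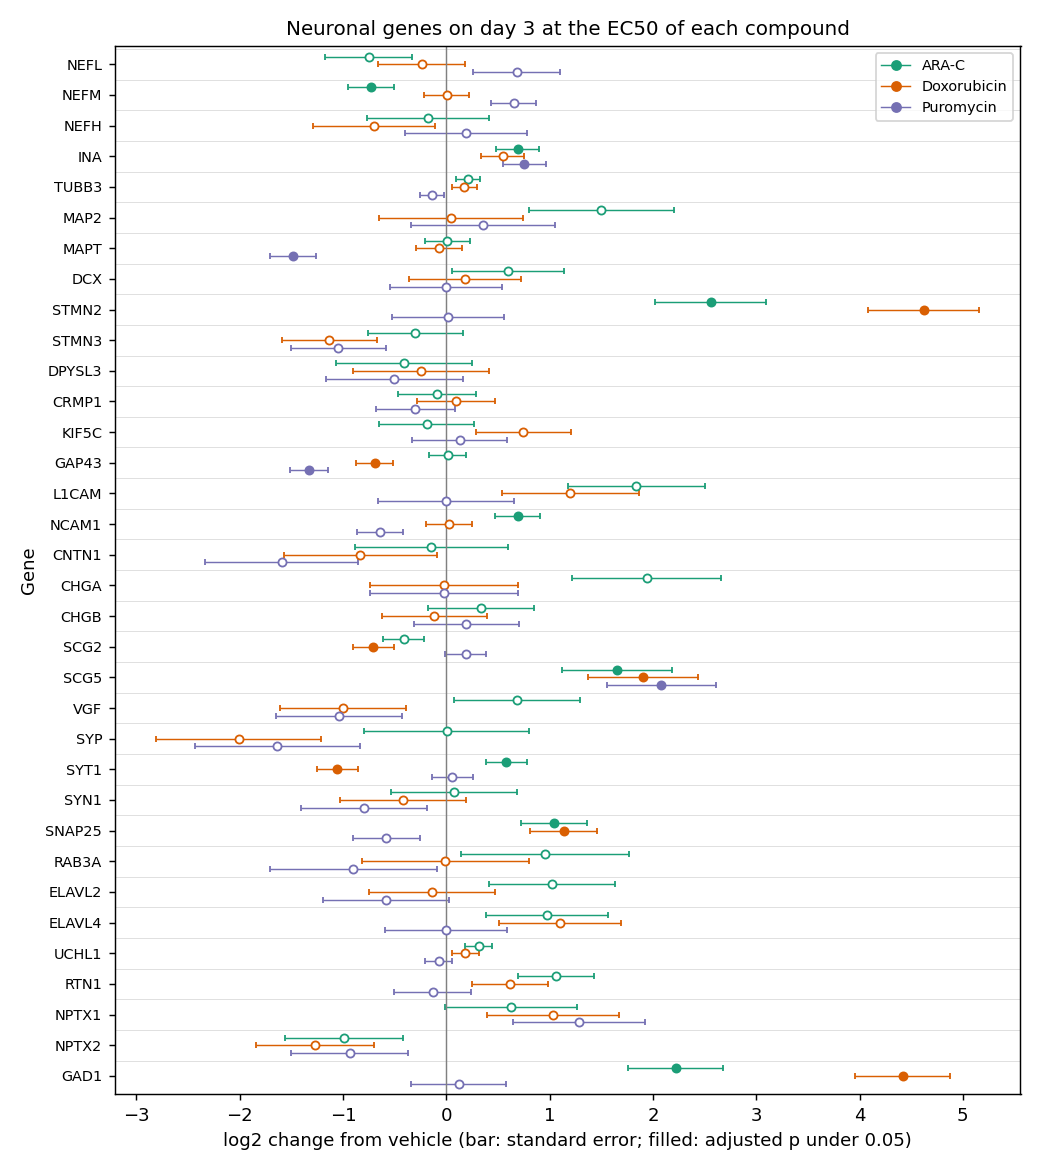
Log2 change against vehicle on day 3 at the EC50, with SE (x axis), for the neuronal genes (y axis) with ARA-C, doxorubicin and puromycin. Filled points passed an adjusted p of 0.05: GAD1 and STMN2 stand farthest right with doxorubicin (4.42 and 4.62), and MAPT and GAP43 left with puromycin (-1.48 and -1.33). Signals under 10 were counted as 10.

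At 24 h, 2 members were higher and 2 lower with ARA-C than with doxorubicin (3.72% and 4.66% of all probe sets), 3 and 2 with ARA-C than with puromycin (6.5% and 2.64%), and 2 and 0 with doxorubicin than with puromycin (4.42% and 1.12%). Quantile normalization gave 3 and 4 for ARA-C over puromycin and 0 and 1 for doxorubicin over puromycin. STMN2 was then lower with ARA-C than with doxorubicin (9.49 and 78.2, change -2.63 ± 0.49), and so was NEFM (260 and 758, change -1.55 ± 0.19). On day 5, 7 were higher and 4 lower with ARA-C than with doxorubicin (4.78% and 20.8%). SYT1 was higher with ARA-C (903 and 306, change 1.48 ± 0.18), as was RAB3A (209 and 34.8, change 2.61 ± 0.72), and NEFM (264 and 819, change -1.64 ± 0.19) and GAD1 (-2.06 ± 0.41) were lower.

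Between doses, averaged over times, 6 members were higher and 0 lower at 2xEC50 than at EC50 of ARA-C (19.5% and 1.67% of all probe sets), each dose taken against vehicle of its own plate part. These were NEFM, INA, GAP43, SCG2, UCHL1 and TUBB3 (1.30, 1.13, 0.81, 0.48, 0.29 and 0.26). Since the ARA-C doses lay on different plate parts, dose and place cannot be told apart. On day 5 the changes of NEFM, INA and GAP43 with 2xEC50 were 2.45, 2.46 and 2.73 against G-H vehicle. Against A-F vehicle they were 0.22, 0.99 and 0.12. For doxorubicin, with both doses in rows A-F, 2 members were higher at 2xEC50 (6.69% of all probe sets), NPTX1 (1.01) and VGF (0.92), and 5 lower (17.3%), namely NCAM1 (-0.68), SYT1 (-0.61), GAP43 (-0.55), UCHL1 (-0.28) and L1CAM (-0.96), while quantile normalization gave 4 higher and 4 lower. For puromycin 0 were higher (0.878%) and 1 lower (0.374%), GAP43 (-0.47), which was -0.35 (adjusted p = 0.16) without 2xEC50 replicate 3 of day 3.

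Vehicle-treated cells changed over time in culture, and on day 5 differently in the plate parts. Between day 3 and 24 h 0 members were higher (1.87% of all probe sets) and 1 lower (2.2%), STMN2 (-1.42), which was -1.10 (adjusted p = 0.2) without replicate 1 of day 3. Between day 5 and day 3, 3 members were higher (2.08%) and 0 lower (4.06%) in rows A-F, with 3 lower at an unadjusted p under 0.05 in limma, and 10 were higher (17.5%) and 5 lower (8.79%) in rows G-H. STMN2, L1CAM and NCAM1 were higher in both, by 3.61, 2.61 and 1.46 in rows A-F and 4.49, 3.06 and 1.64 in rows G-H. In rows G-H alone, MAPT (1.26), SCG2 (0.51), SCG5 (1.66), SYT1 (1.82), SYN1 (2.13), SNAP25 (1.96) and RAB3A (2.38) were also higher and GAP43 (-2.80), NEFM (-2.63), NEFL (-1.79), INA (-1.64) and TUBB3 (-0.36) lower. In rows A-F SYT1 was at -0.22, GAP43 at -0.48 and NEFM and INA both at -0.46.

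Averaged over plate parts, 9 members were higher on day 5 than on day 3 (12.9%) and 5 lower (10%), the same as in rows G-H except SCG2. The averaged calls of RAB3A, SCG5, SYN1 and TUBB3 were lost without 1 array, RAB3A and SCG5 without replicate 1 of day 3 (1.44 and 1.08), SYN1 without replicate 4 of day 3 (1.08) and TUBB3 without replicate 5 of day 5 (-0.21). GAD1 passed in neither averaged comparison.

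The only usable puromycin 2xEC50 array of day 5 allows no test. Its MAPT signal was 26.4, against a mean of 1590 in G-H vehicle, and it had 160 for NCAM1 and 21.2 for STMN2, against 2960 and 409. NEFM and INA were at 517 and 521, against 99.8 and 184. This array had 5.8% of values under the floor and an ACTB 3'/5' log2 ratio of 4.13.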

How the data were processed

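RNA of treated A673 cells was hybridized to 68 Affymetrix arrays of the high-throughput plate format. The authors deposited MAS5 signal intensities on a linear scale for 22930 probe sets, and the MAS5 version is not given in the sources used here. After removal of 715 control probe sets, 22215 were analyzed. Signals under 10 were set to 10 and log2 taken. Symbols came from the platform annotation (19230 probe sets with 1 symbol, 125 with several, 2860 with none), and a gene is given by its brightest probe set over all arrays. One array with blood transcripts was left out, so that the number of arrays left out was 1 and 67 remained.

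Group means were fitted with limma 3.58.1 in R 4.3.3 (intensity trend, residual df 43, prior df 8.761), vehicle being split by plate part, which was read from a supplementary table of the study. P-values were Benjamini-Hochberg adjusted across the 22215, with a threshold of 0.05, and a called member is one under it. SE is the standard error of the fitted log2 difference. The number of arrays per group limits the precision. The fit was tested on simulated data. Alternatives were quantile normalization, a floor of 32, a filter on dim probe sets, plate part or replicate number as a block, the left-out array kept, the second probe set, the other plate part on day 5 and each plate part alone for vehicle over time (both chosen after seeing the data), and each array left out in turn.

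The members and the lists were chosen with earlier results of these data known. All members that passed in any comparison are named, and signals per array are given for up to 3 members of each role with the largest change and a mean signal above the median of all probe sets. Further signals shown for dimmer members were chosen after their values were seen. Promoter windows came from RefSeq. Related lists (neuropeptides, REST and its corepressors, granule processing, neuronal transcription factors, other cytoskeleton, other release machinery) are counted in the closing section, with up to 3 genes each.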

Additional observations from a re-analysis of the deposited data

Results flagged for a closer look

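In 16 of 99 groups of 4 or more vehicle arrays tested, with both plate parts together, 1 array stood apart from the rest by Dixon's criterion. Chance alone meets it in about 1 in 20 groups of independent, normally distributed values. The day 5 groups hold the separate plate states, and many of the signals lie near or under the floor. The count therefore cannot be set against that rate. Apart at 24 h stood TUBB3 in replicate 2 (10600), STMN3 in replicate 1 (112), L1CAM, CHGA and SYP in replicate 3 (15, 33.4 and 28.6) and ELAVL2 in replicate 5 (39). On day 3 these were NEFL and SYN1 in replicate 4 (103 and 6.54), CHGA and CHGB in replicate 5 (15.4 and 15) and ELAVL4 and GAD1 in replicate 6 (11.2 and 18.2). On day 5 they were CNTN1 in replicate 1 (6.02), NPTX2 in replicate 2 (22), ELAVL4 in replicate 3 (28.8) and GAD1 in replicate 6 (10.3). GAD1 was thus above the floor in 1 G-H vehicle array of day 5, while it stayed under it in all A-F vehicle arrays of days 3 and 5.

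For some members the change against vehicle had opposite signs at different times, and the difference between times passed in limma. STMN2 with ARA-C EC50 changed by 4.30 more on day 3 than at 24 h (log2) and by -4.05 on day 5 relative to day 3, and NCAM1 by -2.39 on day 5 relative to day 3. With ARA-C 2xEC50 the day 5 change minus that of 24 h was -2.64 for NCAM1, -1.19 for SYT1 and -2.04 for SNAP25, and minus that of day 3 it was -4.07 for STMN2, -2.52 for NCAM1, -2 for SYT1 and -2.12 for SNAP25. These rest on G-H vehicle of day 5, and SYT1 and SNAP25 were higher than A-F vehicle (0.93 and 0.83). With doxorubicin 2xEC50, SNAP25 differed by -2.02 between day 5 and 24 h and by -2.50 between day 5 and day 3.

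Signals above every vehicle array were seen on the 2 arrays that no test used. The array of puromycin EC50 on day 5 with blood transcripts had 88.6 for MAP2, 104 for DPYSL3, 169 for SCG5, 224 for RAB3A, 47.6 for ELAVL2, 184 for RTN1, 144 for NPTX1 and 33.5 for GAD1. The lone puromycin 2xEC50 array of day 5 had 35.7 for MAP2, 63.5 for CHGA, 84.1 for CHGB, 145 for SCG5, 91.8 for ELAVL2, 86.6 for ELAVL4, 57.4 for NPTX1 and 21.7 for GAD1. On these arrays only 0.176% and 5.8% of values lay under the floor, against 18.7% to 20.9% in day 5 vehicle. The tenth percentile of their signals was 21.1 and 12.4. Low signals were thus raised on both, which limits what these values show.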

How the results depend on the processing

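Counts of called members are given as higher and lower together, with the main count in brackets. With quantile normalization they were 1 (2) for doxorubicin EC50 at 24 h, 3 (5) for doxorubicin 2xEC50 at 24 h, 5 (3) for puromycin 2xEC50 at 24 h, 1 (2) for doxorubicin over puromycin at 24 h and 2 (1) for vehicle of day 3 over 24 h. A floor of 32 gave 13 (7) for the doxorubicin doses and 2 (1) for the puromycin doses. Plate part as a block gave 5 (3) for ARA-C EC50 and 1 (5) for ARA-C 2xEC50 at 24 h, 11 (7) for puromycin EC50 on day 5, 3 (5) for ARA-C over puromycin and 1 (2) for doxorubicin over puromycin at 24 h, and 0 (1) for the puromycin doses, and in limma GAP43 with doxorubicin EC50 on day 5 turned to 0.26 and SYT1 with ARA-C 2xEC50 on day 5 to 0.03. With the blood-like array kept the spread grew: ARA-C EC50 gave 1 (3) at 24 h and 2 (8) on day 3, ARA-C 2xEC50 2 (5), 5 (10) and 10 (16), doxorubicin EC50 0 (2), 4 (7) and 6 (12), doxorubicin 2xEC50 2 (5) and 7 (12) at 24 h and on day 3, puromycin EC50 0 (3), 0 (4) and 11 (7) and puromycin 2xEC50 0 (3) at 24 h. Between compounds it gave 1 (4), 3 (8) and 6 (11) for ARA-C over doxorubicin, 0 (5) and 9 (17) for ARA-C over puromycin and 0 (2) and 4 (10) for doxorubicin over puromycin, and between doses 0 (6), 1 (7) and 0 (1) for ARA-C, doxorubicin and puromycin, while INA and NEFM with puromycin EC50 on day 5 turned to -0.25 and -0.78. The replicate numbers do not pair the arrays: of 35 pairs 2 had a correlation over 0.1 (mean -0.00601), and 11 of 48 arrays correlated best with their own number. With the replicate block the counts were 3 (8) for ARA-C EC50 on day 3, 0 (2) for doxorubicin EC50, 3 (5) for doxorubicin 2xEC50 and 0 (2) for doxorubicin over puromycin at 24 h and 0 (1) for the puromycin doses. No replicate block could be fitted for ARA-C 2xEC50, whose vehicle arrays share no number with it. With the second probe set in place of the brightest for the 14 members that have one, the counts over all members were 4 (8) for ARA-C EC50 on day 3, 1 (5) and 6 (10) for ARA-C 2xEC50 at 24 h and on day 3, 4 (7) for doxorubicin EC50 on day 3, 3 (5) and 7 (12) for doxorubicin 2xEC50, 4 (7) for puromycin EC50 on day 5, 0 (2) for doxorubicin over puromycin at 24 h, 0 (1) for the puromycin doses and 0 (1) for vehicle of day 3 over 24 h. It turned DPYSL3 with doxorubicin 2xEC50 on day 5 to 1.01, NCAM1 and RTN1 with ARA-C EC50 on day 5 to 0.80 and -1.34, RTN1 between ARA-C and doxorubicin on day 5 to -1.26, SNAP25 with doxorubicin 2xEC50 at 24 h and puromycin EC50 on day 5 to -0.01 and 0.31, and STMN2 in vehicle of day 3 over 24 h to 0.29. Against vehicle of the other plate part, day 5 gave 14 (9) and 10 (16) for the ARA-C doses, 21 (12) for doxorubicin EC50 and 13 (7) for puromycin EC50, and GAP43 turned to 2.03 and 1.20 with the doxorubicin doses, NEFM to 1.40 with ARA-C EC50, and SNAP25 and SYT1 to 0.83 and 0.93 with ARA-C 2xEC50. When arrays were left out in turn, counts were between 1 and 3, 2 and 8 and 8 and 10 for ARA-C EC50 at the 3 times, 3 and 5, 6 and 9 and 13 and 15 for ARA-C 2xEC50, 0 and 1, 4 and 7 and 10 and 13 for doxorubicin EC50, 2 and 5, 7 and 12 and 16 and 18 for doxorubicin 2xEC50, 2 and 3, 2 and 4 and 4 and 7 for puromycin EC50, and 1 and 4 and 4 and 6 for puromycin 2xEC50. They were between 2 and 4, 5 and 9 and 8 and 12 for ARA-C over doxorubicin, 3 and 5 and 11 and 17 for ARA-C over puromycin, 0 and 2 and 7 and 12 for doxorubicin over puromycin, 4 and 8, 4 and 7 and 0 and 2 for the ARA-C, doxorubicin and puromycin doses, 0 and 1 for vehicle of day 3 over 24 h, 11 and 14 for day 5 over day 3, and 7 and 9 for the plate parts on day 5. Single calls of members kept their direction in all of these, and were kept in 1331 cases and lost in 289. Of the calls tried, 109 were lost with the blood-like array kept (114 kept), 63 with the second probe set (73 kept), 38 with quantile normalization (187 kept), 26 with the plate block (188 kept), 24 with the replicate block (140 kept), 17 with the floor of 32 (208 kept) and 9 against the other plate part (49 kept), besides those that turned, and all 193 tried with the filter on dim probe sets were kept. For vehicle of day 5 over day 3, rows A-F alone gave 3 (14), with SYT1 turned to -0.22, and rows G-H alone 15. The cause of these differences was not tested. Vehicle of day 3 in rows A-F had 2 arrays, the puromycin EC50 and doxorubicin 2xEC50 groups of day 5 had 2 each in the analysis, and dim members such as DCX and ELAVL4 lay under the floor on most arrays, which limits all of these counts.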

Other observations

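Genes related to the neuronal members, counted by list, moved as follows, and the lists were chosen with earlier results known. Their day 5 changes are given only against vehicle of the same plate part, which for ARA-C 2xEC50 is G-H vehicle. Of 11 neuropeptide genes 9 were measured, and 5 rose and 0 fell with ARA-C 2xEC50 on days 3 and 5 (11.2% and 11.8% of all probe sets rose) and with doxorubicin EC50 on days 3 and 5 (6.27% and 10.1%). Their median change with doxorubicin EC50 on day 3 was 1.05, against 0 over all probe sets. NPY, neuropeptide Y, rose by 3.19 ± 0.16 with ARA-C 2xEC50 and 3.15 with doxorubicin EC50 on day 3. TAC1, the substance P precursor, rose by 3.61 ± 0.52 with doxorubicin EC50 on day 5, and CCK, cholecystokinin, by 3.70 ± 0.59 with puromycin 2xEC50 on day 3.

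Of 9 genes of REST and its corepressors 8 were measured. With ARA-C EC50 on day 5, 0 rose and 7 fell, where 33.3% of all probe sets fell, with a median of -0.73, against -0.21 over all probe sets. With doxorubicin 2xEC50 0 rose and 5 fell, where 34.6% of all probe sets fell (median -1.14, against -0.19). KDM1A, a histone demethylase, fell by 1.71 on the log2 scale and RCOR1, a REST corepressor, by 1.68 with doxorubicin 2xEC50, and CTDSP1, a small phosphatase, by 1.67 with ARA-C 2xEC50, all on day 5. The list's REST itself was -1.14 ± 0.24 with doxorubicin 2xEC50. In other comparisons the list held both falls and rises. The rises were RCOR1 (0.60) and HDAC1 (0.47) with doxorubicin EC50 on day 3, HDAC1 with it on day 5 (0.52), and HDAC2 with ARA-C EC50 at 24 h (0.31). The groups of the 2 counts above had mean ACTB 3'/5' log2 ratios of 3.71 and 4.55, against 1.98 in A-F vehicle. What the changes of this list have to do with RNA quality or with those of the neuronal members was not tested.

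Of 9 granule processing genes 7 were measured, and 0 rose and 3 fell with doxorubicin 2xEC50 on day 5, a comparison in which 13.7% of all probe sets rose and 34.6% fell, as for the lists that follow. CPE, a carboxypeptidase that trims prohormones, was -3.54 ± 0.37 with doxorubicin EC50 on day 5. PTPRN2, a granule membrane protein, rose by 1.80 with ARA-C 2xEC50 and PAM, which amidates peptides, was -1.49 with doxorubicin 2xEC50 on that day. Of 22 neuronal transcription factors 18 were measured, and 6 rose and 4 fell with doxorubicin 2xEC50 on day 5, NHLH2 by 2.62. GATA2 and GATA3 rose by 1.83 and 1.79 with doxorubicin 2xEC50 on day 3.

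Of 19 other cytoskeletal genes of neurons 17 were measured, and 2 rose and 10 fell with doxorubicin 2xEC50 on day 5 (median -0.76, against -0.19 over all probe sets). PRPH, peripherin, a filament of peripheral neurons, was -3.85 ± 0.27 with ARA-C 2xEC50 on day 5, where INA was at 2.46, both against G-H vehicle. Against A-F vehicle INA was at 0.99. KIF1B, a kinesin, was -2.58 with doxorubicin 2xEC50 on day 5, and TUBB4A, a tubulin, 2.11 with it on day 3. Of 21 other genes of the release machinery 18 were measured, and 5 rose and 5 fell with doxorubicin 2xEC50 on day 5. SYNGR3, a vesicle membrane protein, was -3.53 with doxorubicin EC50 on day 5, and SV2B and SNAP91, which act on synaptic vesicles, were 2.83 and 2.66 with doxorubicin 2xEC50.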
